A study of Mus musculus with 168 samples.

Results

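The cells described here are single cells of the subventricular zone (SVZ), a germinal layer along the lateral ventricles of the mouse brain, that carried little ribosomal protein mRNA and had transcripts of Gfap or Thbs4. Gfap encodes the glial fibrillary acidic protein of astrocytes and adult neural stem cells, and Thbs4 encodes the matricellular protein thrombospondin 4. Expression is given in TPM, a gene's length-corrected share of all transcripts in a cell, after each column was rescaled to a sum of 1000000. The ribosomal protein genes took less than 5% of that sum in all cells kept. Among the 133 SVZ cells, 44 kept cells had Gfap or Thbs4 at 1 TPM or more and are called positive. The other 63 kept cells had both genes below 1 TPM and are called negative, and the remaining 26 cells were at 5% or above and were left out. Both groups were thus chosen from measured values, and Gfap and Thbs4 are left out of the results. The ribosomal protein genes, also used in the choice, stayed in the counts over all genes.

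The positive cells comprised 19 with Thbs4 but not Gfap, 16 with Gfap but not Thbs4 and 9 with both. The positive cells nearest to the limit had 2.45, 7.06 and 8.34 TPM of the higher of the 2 genes, and the negative cells nearest to it had 0.52 and 0.41 TPM. The largest ribosomal shares inside the limit were 4.19% and 3.81%, and the smallest outside it were 5.14% and 5.15%. A cell listed below 1 TPM may still have held transcripts that the library did not capture.

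All positive and negative cells were labelled as old neural stem cells from male C57BL/6 mice aged 23 months, sorted as CD45-O4-CD133+GLAST+ and picked by hand, with no transgene or treatment in either group. Tissue of several mice was pooled, and no label ties a cell to an animal. The cells therefore count as 1 sample per group, no test of a difference was possible, and every SD, share and interval below describes cells only. The cells carry 2 name series, ogp with 22 positive and 28 negative cells and ogp2 with 22 positive and 35 negative cells, which the labels do not explain. Values within each series stand beside the pooled ones of most genes described at length and of most lists. The whole set holds 150 single cells with values, among them 13 astrocytes sorted as GLAST+ from the striatum at 25 months, and the protocol text gives 22 months where the age label of the SVZ cells gives 23.

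The positive cells had a median of 3232.5 genes at 1 TPM or more, against 3303 in negative cells. Their ribosomal share had a median of 1.97%, against 1.61% in negative cells. TPM keeps no depth, so the number of reads behind a cell is unknown. In each group 2 cells had listed values that summed to less than 500000 before rescaling.

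Adult neural stem cells of the SVZ are radial astrocyte-like cells, most of which are quiescent, and they share much of their transcriptome with ordinary astrocytes. GFAP and vimentin form their intermediate filaments, and thrombospondin 4 has been described in SVZ astrocytes that respond to cortical injury. Interferon signalling runs from the receptor through transcription factors to promoter elements that switch on antiviral genes and MHC class I, the surface complex that presents peptides to T cells.

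Astroglial genes were present throughout both groups, and of 13 neuroblast markers 1 reached a mean of 10 TPM in either group. Slc1a3, the gene of the GLAST transporter used in the sort, was listed in 44 of 44 positive cells at a mean of 3706 ± 1506 TPM and in 63 of 63 negative cells at 4043 ± 1682 TPM (SD over cells). Prom1, the gene of CD133, was at 1 TPM or more in 4 of 44 positive and 2 of 63 negative cells. The neuroblast gene Dcx was listed at 0 in every positive cell and was above 1 TPM in 1 negative cell. The proliferation gene Mki67 stayed below 1 TPM in every cell of both groups, and none of 23 genes of the G2 and M phases reached a mean of 10 TPM in either group. Egfr, a receptor of activated stem cells, was present in 13 of 44 positive cells at a mean of 29.5 TPM and in 16 of 63 negative cells at 24.4 TPM.

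Markers of other cell types were unevenly spread. Of 15 oligodendrocyte lineage markers, positive cells had at most 4 in a cell, with summed levels from 0 to 749 TPM and a median of 116 TPM, whereas negative cells had up to 7, with sums from 0 to 7768 TPM and a median of 188 TPM. Of these markers, 8 of 15 had a mean of 10 TPM in either group. In positive cells 1 was at least 2-fold higher and 4 were at least 2-fold lower (12.5% and 50%, beside 12.4% each way over all genes). The 2 highest negative sums, 7768 and 6753 TPM, belonged to cells that had 7 of the 15 markers each. Among these markers were Olig1 at 5597 and 3698 TPM and Pdgfra at 245 and 1177 TPM. No positive cell had Olig1 or Pdgfra at 1 TPM. Of 11 microglia markers, positive cells had summed levels from 0 to 4751 TPM with a median of 2.33 TPM, and negative cells from 0 to 871 TPM with a median of 34.9 TPM. With 4 of the 11 at 10 TPM, 2 were at least 2-fold higher and 1 was at least 2-fold lower in positive cells, beside 12.4% each way over all genes. A single positive cell held the maximum, with the complement gene C1qb at 3762 TPM. The part of these cells in the results was not tested, and results without them are given where they move a value by over 1.5 times.

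Over the whole transcriptome as many genes were higher as lower in positive cells. Differences are given as log2((mean TPM of positive cells + 1)/(mean TPM of negative cells + 1)), which understates the difference of genes at low levels, over the 8858 genes with a mean of 10 TPM in either group. By this measure 1100 genes (12.4%) were at least 2-fold higher and 1102 (12.4%) at least 2-fold lower in positive cells, with a median over all genes of -0.0021. In both name series at once, 429 genes (4.84%) were at least 2-fold higher and 500 (5.64%) at least 2-fold lower. As many as 651 genes were 2-fold higher in one series and 2-fold lower in the other. The sign was shared for 53.5% of genes, and Pearson's r between the series across the 8858 genes was 0.13. A single gene past 2-fold in the pooled cells was therefore often not so in each series, and most weight below is on genes and lists with values in both.

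**Figure D1:**
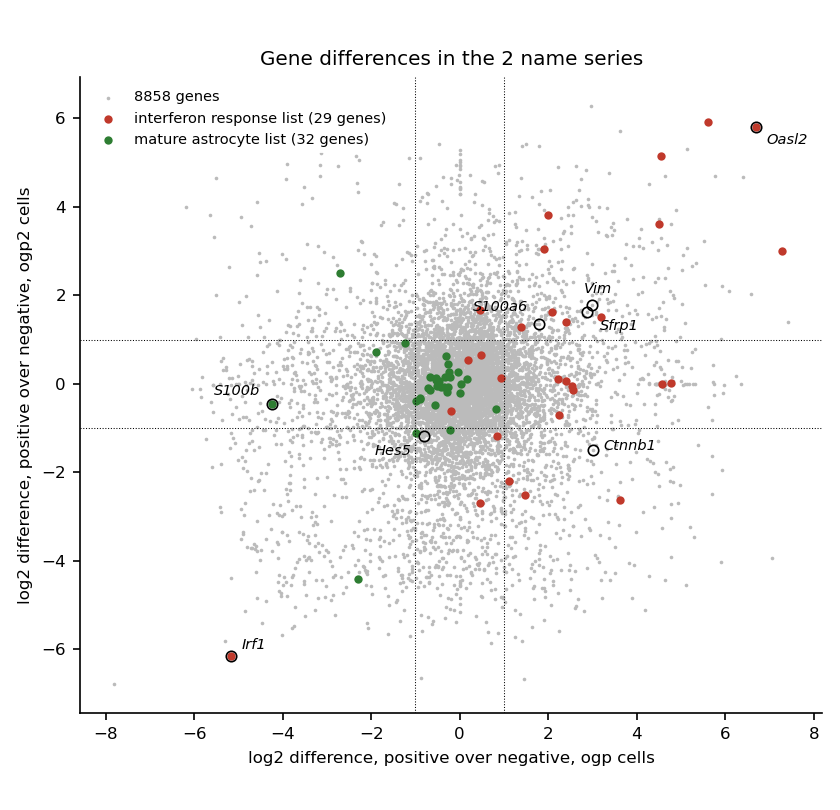
Difference of each of 8858 genes between positive and negative cells (log2, mean TPM + 1), in ogp cells on the horizontal axis and in ogp2 cells on the vertical axis. Dotted lines mark 2-fold, red points are 29 interferon response genes and green points 32 mature astrocyte genes. The grey cloud has little slope (r = 0.13), Vim, Sfrp1 and S100a6 lie past 2-fold higher in both series, and Irf1 lies far lower in both.

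Vim and S100a6 had higher means in positive cells of both series, while other genes of intermediate filaments and calcium-binding proteins differed in either direction. Vim, the gene of vimentin (ENSMUSG00000026728, GRCm38 chromosome 2, 13573927 to 13582826, plus strand), had a lowest value of 0, a median of 0 and a highest value of 1139 TPM in positive cells, against 0, 0 and 332 TPM in negative cells. It was present in 13 of 44 positive cells (29.5%, 95% exact Clopper-Pearson interval 16.8 to 45.2, counting error only) and in 12 of 63 negative cells (19.0%, 10.2 to 30.9). The groups overlapped, and the highest positive cells lay above every negative cell. The means were 168 ± 314 and 26.1 ± 70.6 TPM, a log2 difference of 2.64 that was 2.99 in ogp and 1.78 in ogp2 cells. Among positive cells, the 28 with Thbs4 averaged 247 TPM. The 16 with Gfap only averaged 29.7 TPM, near the mean of negative cells, and 1 of them had Vim.

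S100a6, a small calcium-binding protein of the S100 family (ENSMUSG00000001025, chromosome 3, 90612882 to 90624181, plus strand), ran from 0 through a median of 264 to 2839 TPM in positive cells and from 0 through a median of 133 to 706 TPM in negative cells. Positive cells had it in 33 of 44 cases (75.0%, 59.7 to 86.8), and negative cells in 38 of 63 cases (60.3%, 47.2 to 72.4). Means of 452 ± 629 and 155 ± 182 TPM gave a log2 difference of 1.54, with 1.80 in ogp and 1.36 in ogp2 cells. The ranges again overlapped, with positive cells at the top. Vim and S100a6 were both named as markers when this group of cells was proposed, so their direction is not independent support.

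The rest of the S100, annexin and galectin list divided. Of 16 members with 10 TPM, 4 were at least 2-fold higher, 1 was at least 2-fold lower and 11 lay above 0, shares of 25% and 6.25% at 2-fold beside 12.4% each way over all genes. The median was 0.30, with 0.28 in ogp and 0.096 in ogp2 cells. Anxa6, a membrane-binding annexin, averaged 138 TPM in positive cells and 59.2 TPM in negative cells, and was higher in both series with log2 differences of 1.08 and 1.31. Crip1, a LIM domain protein, averaged 72.7 TPM over positive cells, of which 9 of 44 had it, and 20.3 TPM over negative cells, of which 7 of 63 had it. S100b, the classical S100 protein of mature astrocytes (ENSMUSG00000033208, chromosome 10, 76253853 to 76261159, plus strand), went the other way. Its lowest, median and highest values were 0, 0 and 854 TPM in positive cells, against 0, 37.3 and 1096 TPM in negative cells. Transcripts were found in 14 of 44 positive cells (31.8%, 18.6 to 47.6) and in 41 of 63 negative cells (65.1%, 52 to 76.7). The log2 difference of -1.56 was mainly that of ogp cells, at -4.25, with -0.45 in ogp2 cells.

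Of the intermediate filament and reactive glia list, 7 of 23 members had 10 TPM in either group. Of these, 2 were at least 2-fold higher and 2 at least 2-fold lower (28.6% each, beside 12.4% over all genes). The median was 0.59, with 0.49 in ogp and -0.15 in ogp2 cells. Besides Vim, C4b of the complement cascade averaged 339 ± 477 TPM in positive cells and 207 ± 192 TPM in negative cells, a log2 difference of 0.71 with 0.86 in ogp and 0.51 in ogp2 cells, which was 0.12 without the 4 positive cells highest in interferon genes. The small heat shock protein gene Cryab was present in 7 of 44 positive cells (15.9%, 6.64 to 30.1) and in 33 of 63 negative cells (52.4%, 39.4 to 65.1). Its means were 38.3 ± 98.0 and 138 ± 195 TPM, and it was lower in both series. Serpina3n, a serine protease inhibitor of reactive astrocytes, was present in 2 of 44 positive and 8 of 63 negative cells. Nes, which encodes the filament nestin, was listed at 0 in every cell of both groups.

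**Figure D2:**
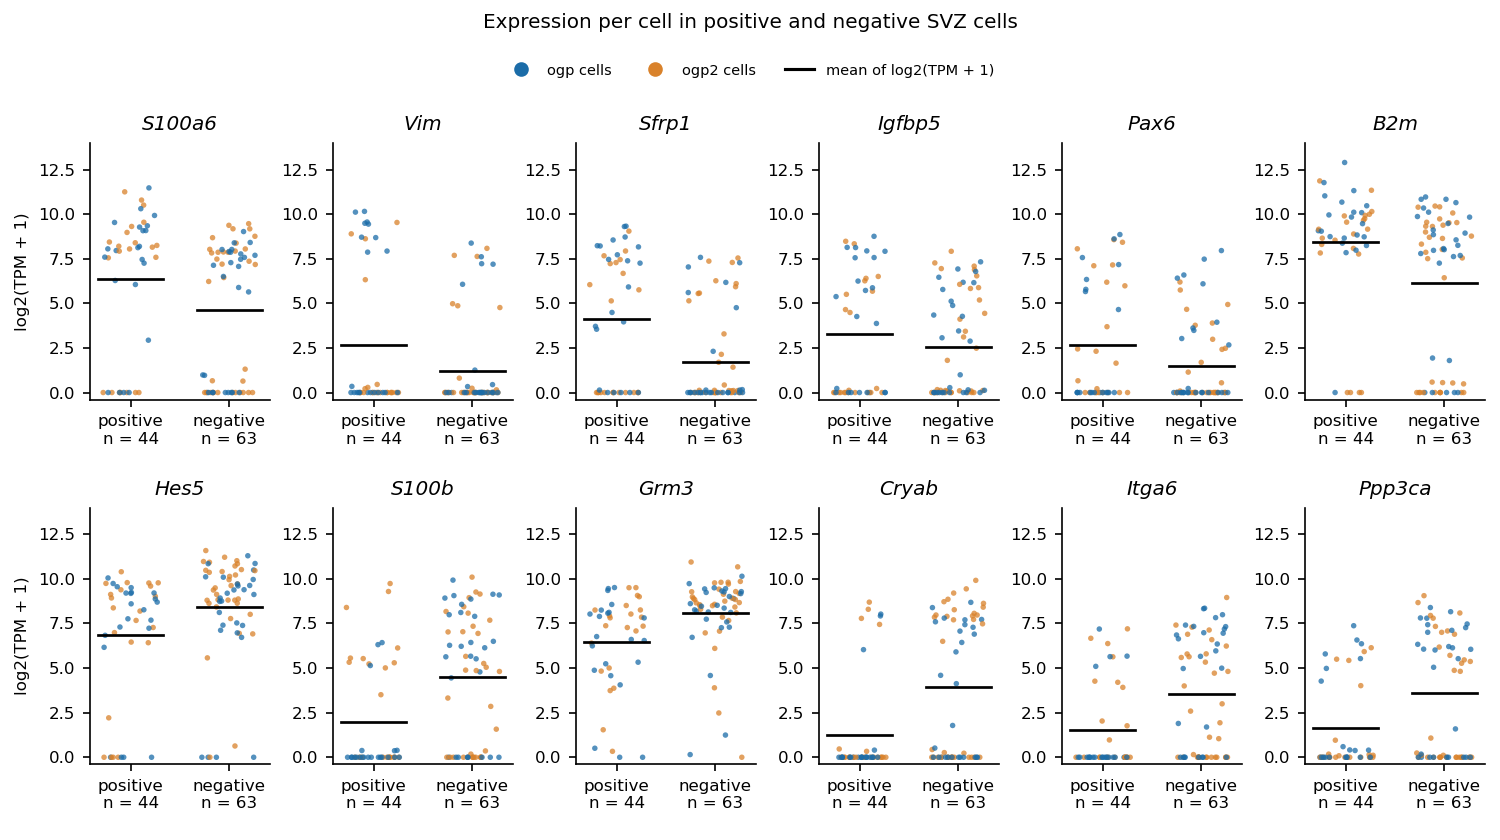
log2(TPM + 1) of 12 genes in each of 44 positive cells (left) and 63 negative cells (right), with a point per cell coloured by name series and a black line at the mean of the plotted values. All 12 pairs of groups overlap. S100a6, Vim, Sfrp1, Igfbp5, Pax6 and B2m in the upper row have higher means in positive cells, and Hes5, S100b, Grm3, Cryab, Itga6 and Ppp3ca in the lower row have lower means, with S100b present in 14 of 44 positive and 41 of 63 negative cells.

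Among signalling genes, Sfrp1 was higher in positive cells of both series; it encodes a secreted protein that binds Wnt ligands (ENSMUSG00000031548, chromosome 8, 23411502 to 23449632, plus strand). Its lowest, median and highest values were 0, 27.8 and 640.4 TPM in positive cells, against 0, 0 and 190 TPM in negative cells. It was present in 26 of 44 positive cells (59.1%, 43.2 to 73.7) and in 20 of 63 negative cells (31.7%, 20.6 to 44.7). The means of 124 ± 174 and 23.4 ± 50.1 TPM differed by 2.36 on the log2 scale, with 2.89 in ogp and 1.63 in ogp2 cells. The highest positive cells exceeded the highest negative cell, and 18 of 44 positive cells had no Sfrp1 at 1 TPM.

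Of the 31 genes of the Wnt list, 17 had 10 TPM, of which 5 (29.4%, beside 12.4% over all genes) were at least 2-fold higher and 1 at least 2-fold lower. In both series at once, 2 were at least 2-fold higher and 1 at least 2-fold lower, beside 4.84% and 5.64% over all genes. The median of 0.13 was -0.058 in ogp and 0.19 in ogp2 cells. Fzd5, a Frizzled receptor for Wnt, is not a member of this list and was named by the rule described below. It was present in 17 of 44 positive cells at a mean of 24.5 TPM and in 14 of 63 negative cells at 6.86 TPM. The log2 differences were 1.77 in ogp and 1.43 in ogp2 cells. Because that rule required the same direction in both series, the shared sign of Fzd5 was fixed in advance. Ctnnb1, the gene of the Wnt effector beta-catenin, averaged 77.8 TPM in positive and 31.7 TPM in negative cells, but the series differed in sign, with a log2 difference of 3.02 in ogp and -1.50 in ogp2 cells. Fzd1, a related receptor, averaged 30.5 and 12.3 TPM, with 0.024 in ogp and 3.82 in ogp2 cells. Porcn, which loads Wnt proteins with the lipid needed for secretion, averaged 41.9 TPM in positive and 69.4 TPM in negative cells, with log2 differences of -2.03 in ogp and 0.094 in ogp2 cells.

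Notch receptors and a Notch target differed in sign. Notch2 was present in 42 of 44 positive cells at a mean of 47.9 ± 40.1 TPM and in 54 of 63 negative cells at 28.9 ± 27.8 TPM, a log2 difference of 0.71 with 0.63 and 0.78 in the 2 series. Notch1 averaged 50.6 TPM in positive and 27.2 TPM in negative cells, with a log2 difference of 1.97 in ogp and 0.10 in ogp2 cells. Hes5, a transcriptional repressor that Notch signalling induces in neural stem cells and astrocytes (ENSMUSG00000048001, chromosome 4, 154960923 to 154962371, plus strand), was lower in positive cells. Its lowest, median and highest values were 0, 319 and 1351 TPM in positive cells, against 0, 586 and 3077 TPM in negative cells, with means of 395 ± 351 and 815 ± 723 TPM. As many as 36 of 44 positive and 57 of 63 negative cells had it, so the difference lay in its level more than in its presence, and it was -0.80 in ogp and -1.18 in ogp2 cells. Of the 14 Notch pathway genes with 10 TPM, 2 were at least 2-fold higher and 2 at least 2-fold lower (14.3% each, near the 12.4% over all genes). Their median of 0.0040 was -0.39 in ogp and 0.24 in ogp2 cells.

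The list of SVZ stem cell genes lay near 0, with a median of -0.11. At least 2-fold higher were 2 of 20 members (10%, near the 12.4% over all genes), and 1 (5%) was lower. Igfbp5, a binding protein of insulin-like growth factors, averaged 72.2 ± 115 TPM in positive and 30.7 ± 51.7 TPM in negative cells, in 22 of 44 and 30 of 63 cells, with log2 differences of 1.72 in ogp and 0.56 in ogp2 cells. In the 16 positive cells with Gfap only, Igfbp5 averaged 22.4 TPM, below the mean of negative cells. Pou3f4, a POU domain transcription factor of the developing brain, was present in 12 of 44 positive and 5 of 63 negative cells and averaged 21.9 and 5.91 TPM. Lama2, a laminin chain of the basal lamina, averaged 112 ± 188 TPM in positive and 49.6 ± 96.8 TPM in negative cells, with log2 differences of 1.51 in ogp and 0.48 in ogp2 cells. In the BMP, Id and Tgfb list, 1 of 13 members was at least 2-fold higher and 2 lower (7.69% and 15.4%, beside 12.4% each way over all genes). Smad5, a signal transducer of BMP receptors, averaged 24.3 and 8.17 TPM, and the BMP receptor gene Acvr1 was present in 2 of 44 positive and 10 of 63 negative cells.

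Several transcription factors that pattern the developing forebrain had higher means in positive cells, though the list was not uniform. Of 17 patterning genes with 10 TPM, 6 (35.3%, beside 12.4% over all genes) were at least 2-fold higher and 2 (11.8%) at least 2-fold lower. In both series at once, 2 were at least 2-fold higher and 1 at least 2-fold lower, beside 4.84% and 5.64% over all genes. The median was 0.54, with 0.41 in ogp and -0.42 in ogp2 cells over the same genes. Pax6, a paired-box factor (ENSMUSG00000027168, chromosome 2, 105668900 to 105697364, plus strand), had a lowest value of 0, a median of 0 and a highest value of 463 TPM in positive cells, against 0, 0 and 248 TPM in negative cells. Transcripts were found in 19 of 44 positive cells (43.2%, 28.3 to 59) and in 21 of 63 negative cells (33.3%, 22 to 46.3), with means of 64 ± 122 and 15 ± 42.1 TPM. The log2 difference of 2.02 was 1.27 in ogp and 3.14 in ogp2 cells. Emx2, a homeobox gene of the dorsal telencephalon, was present in 9 of 44 positive cells at a mean over all cells of 36.4 TPM and in 7 of 63 negative cells at 7.04 TPM. Its log2 difference of 2.22 was 1.61 without the positive cell highest in microglia markers. Otx1, another homeobox gene, averaged 27 and 11.8 TPM, and Zic4 came from 1 positive cell with 1133 TPM. These means rest on few cells, and without the highest cell of each gene and group the list's median was 0.

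Interferon response genes gave the largest median of the lists with at least 7 genes measured. Of 34 members, 29 had 10 TPM in either group. Of these, 18 (62.1%, beside 12.4% over all genes) were at least 2-fold higher in positive cells and 1 was at least 2-fold lower. In both series at once, 11 of the 29 were at least 2-fold higher, beside 4.84% over all genes. The median of the 29 was 1.83, with 2.22 in ogp and 0.13 in ogp2 cells over the same genes. In ogp2 cells it was 1.34 over the members that had 10 TPM there. The difference was carried by a minority of cells. Summed over the 34 genes, positive cells ran from 11.4 through a median of 1177 to 28550 TPM, and negative cells from 3.93 through 1102 to 6511 TPM, so the medians lay close together. At least 10 of the 34 genes were present in 8 of 44 positive cells (18.2%, 8.19 to 32.7) and in 2 of 63 negative cells (3.17%, 0.387 to 11). In ogp cells these were 4 of 22 positive and 0 of 28 negative cells, and in ogp2 cells 4 of 22 positive and 2 of 35 negative cells. No striatal astrocyte of 13 reached that number, with an exact interval of 0 to 24.7% that holds the shares of both SVZ groups. The cell with the most, a positive ogp cell, had 25 of the 34 genes, and the next had 21. Without the 4 positive cells with the highest sums, left out after the values were seen, the median was 0.25, and without the top cell of each group it was 0.74.

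**Figure D3:**
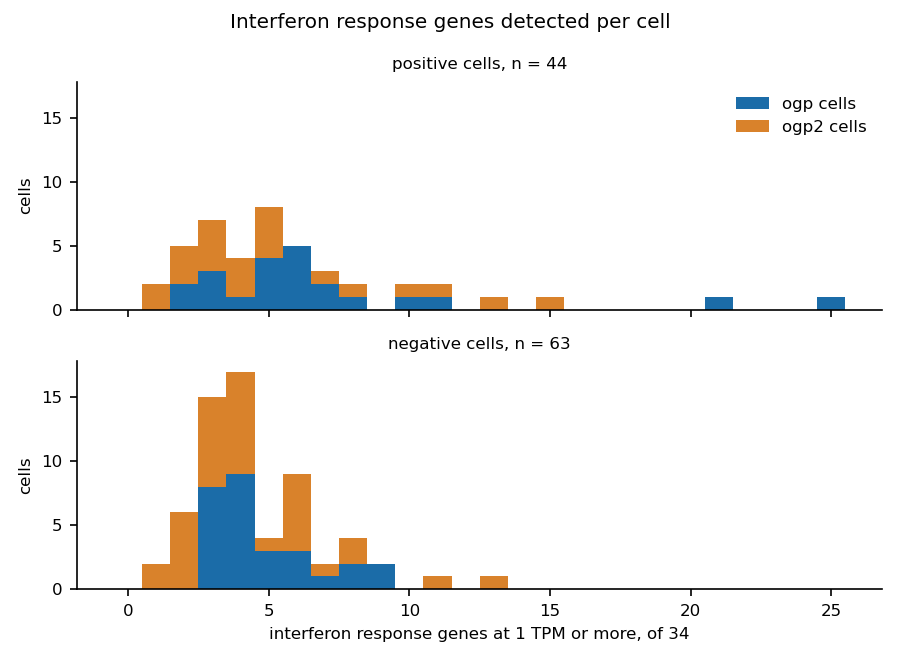
Number of cells by how many of 34 interferon response genes they had at 1 TPM or more, for 44 positive cells (upper panel) and 63 negative cells (lower panel), stacked by name series. Most cells of both groups had fewer than 10. The tail from 10 upward holds 8 positive and 2 negative cells, and the 2 cells beyond 20 are positive.

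Oasl2, Ifit1 and Isg15 had the largest positive differences of the list among members with 20 TPM. Their promoters are shown because interferon genes share a short DNA element that can be looked for in them. The sequences run from 250 bases before to 50 bases after the start of the gene, 5′ to 3′ on the gene's own strand, and are those of RefSeq on build GRCm38.p6. Capitals mark matches to GAAANNGAAA, searched on both strands, with overlapping matches run together.
Oasl2 (chr5:114896684-114896983, plus strand): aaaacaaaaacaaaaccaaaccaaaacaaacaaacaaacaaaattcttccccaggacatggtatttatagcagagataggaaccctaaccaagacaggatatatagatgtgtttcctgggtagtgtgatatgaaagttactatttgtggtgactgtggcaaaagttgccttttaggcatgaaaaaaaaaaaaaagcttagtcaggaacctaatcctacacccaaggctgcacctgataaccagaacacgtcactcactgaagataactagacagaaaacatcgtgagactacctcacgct
Ifit1 (chr19:34640639-34640938, plus strand): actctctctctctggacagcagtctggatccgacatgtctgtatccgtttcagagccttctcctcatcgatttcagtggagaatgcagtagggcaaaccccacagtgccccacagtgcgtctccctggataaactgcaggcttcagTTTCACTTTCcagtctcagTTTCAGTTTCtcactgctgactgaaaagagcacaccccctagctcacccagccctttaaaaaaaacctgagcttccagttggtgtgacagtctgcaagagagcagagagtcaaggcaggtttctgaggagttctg
Isg15 (chr4:156200769-156201068, minus strand): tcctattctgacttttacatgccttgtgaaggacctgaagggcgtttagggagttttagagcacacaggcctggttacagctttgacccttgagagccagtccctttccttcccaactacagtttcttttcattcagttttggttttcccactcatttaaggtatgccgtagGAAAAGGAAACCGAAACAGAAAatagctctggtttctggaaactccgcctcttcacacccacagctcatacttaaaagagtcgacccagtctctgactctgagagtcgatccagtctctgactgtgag
The Ifit1 window holds 2 matches, whose first bases lie 104 and 85 bases before the start, and the Isg15 window holds 3 overlapping ones at 78, 72 and 66 bases. The Oasl2 window holds none. Of 34 list members, 25 had a RefSeq promoter, and 11 of these 25 (44%) had a match. The match was in 7 of the 14 members that were at least 2-fold higher (50.0%) and in 4 of the other 9 with 10 TPM (44.4%). Among 6876 genes with 10 TPM and a promoter, 254 (3.69%) had it, and among all 32851 promoters 1131 (3.44%). A match describes letters only.

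Oasl2, an oligoadenylate synthetase-like antiviral protein (ENSMUSG00000029561, chromosome 5, 114896936 to 114912234, plus strand), was at 0 in the median of both groups and reached 877 TPM in positive and 12.1 TPM in negative cells. It was present in 9 of 44 positive cells (20.5%, 9.80 to 35.3) and in 1 of 63 negative cells (1.59%, 0.0402 to 8.53). Its means were 89.2 ± 212 and 0.209 ± 1.52 TPM, and it was found in 5 positive ogp and 4 positive ogp2 cells. Ifit1, an RNA-binding antiviral protein, was present in 6 of 44 positive cells with a maximum of 874 TPM and in 1 of 63 negative cells with 8.70 TPM. Isg15, a ubiquitin-like protein, was present in 4 of 44 positive cells, with 2770.2 and 655 TPM in the highest of them, and in 1 of 63 negative cells with 73.8 TPM. Irf1, a transcription factor that interferon induces, ran the other way, with 1 of 44 positive cells at 1.24 TPM and 15 of 63 negative cells (23.8%, 14 to 36.2) at up to 593 TPM. Reads of Ifit and MHC genes can be shared between close copies, so the split between copies is uncertain.

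Most MHC class I genes had higher means in positive cells. Tap1, Tap2 and Tapbp belong to both this list and the interferon list, so the 2 results are not separate. Of 15 members 12 had 10 TPM, of which 4 (33.3%, beside 12.4% over all genes) were at least 2-fold higher, 0 lower and 11 above 0. At least 2-fold higher in both series was 1 of the 12, beside 4.84% over all genes. The median was 0.65, which was 0.77 in ogp and 0.48 in ogp2 cells. The summed level of the list ran from 1152 through a median of 2472 to 13075 TPM in positive cells, against 18.5, 1672 and 5042 TPM in negative cells. B2m, the invariant light chain (ENSMUSG00000060802, chromosome 2, 122147686 to 122153083, plus strand), had a lowest value of 0, a median of 553 and a highest value of 7622 TPM in positive cells, against 0, 259 and 1995 TPM in negative cells. The gene was present in 39 of 44 positive cells (88.6%, 75.4 to 96.2) and in 44 of 63 negative cells (69.8%, 57 to 80.8). Its means of 993 ± 1337 and 462 ± 533 TPM differed by 1.10, with 1.13 in ogp and 0.97 in ogp2 cells, and by 0.86 without the 4 cells highest in interferon genes. Tap1, a subunit of the peptide transporter, was present in 10 of 44 positive and 6 of 63 negative cells at means of 50.2 and 18.8 TPM. H2-T23, a non-classical class I heavy chain, averaged 33 and 13.3 TPM, and H2-T22 averaged 36.3 and 12.5 TPM from 5 and 3 cells. The log2 difference of H2-T22 was 1.47, and 3.14 without the 2 negative cells with oligodendrocyte markers. The median of the list stayed between 0.48 and 0.77 under the 21 alternative settings tried.

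The list of mature astrocyte genes lay below 0 mainly among ogp cells. All 32 members had 10 TPM, and 0 were at least 2-fold higher, 3 (9.38%, beside 12.4% over all genes) at least 2-fold lower and 24 below 0. The median was -0.22, with -0.49 in ogp and -0.056 in ogp2 cells. Htra1, a secreted serine protease, was present in every cell, from 56.9 through a median of 2320 to 7517 TPM in positive cells and from 607 through 4348 to 10298 TPM in negative cells. Its means of 2659 ± 1997 and 4162 ± 2036 TPM differed by -0.65, with -0.98 in ogp and -0.40 in ogp2 cells. Gpc5, a heparan sulfate proteoglycan, was present in 32 of 44 positive and 56 of 63 negative cells at means of 206 and 312 TPM.

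The genes for transmitter handling had a median below 0 in both series. Slc1a2, Glul, Slc6a11 and Grm3 belong to both this list and the mature astrocyte list. Of 22 genes for glutamate and GABA handling, 0 were at least 2-fold higher, 3 (13.6%, near the 12.4% over all genes) at least 2-fold lower and 20 below 0, with a median of -0.36 that was -0.40 in ogp and -0.30 in ogp2 cells. Grm3, a metabotropic glutamate receptor of astrocytes (ENSMUSG00000003974, chromosome 5, 9485541 to 9725170, minus strand), ran from 0 through a median of 164 to 729.9 TPM in positive cells and from 0 through 403 to 1973 TPM in negative cells. Transcripts were found in 40 of 44 positive and 61 of 63 negative cells, its means were 222 ± 223 and 468 ± 361 TPM, and the log2 difference was -1.0 in ogp and -1.11 in ogp2 cells. Gabbr2, a subunit of the GABA-B receptor, was present in 9 of 44 positive cells (20.5%, 9.80 to 35.3) and 27 of 63 negative cells (42.9%, 30.5 to 56), with means of 4.80 and 29.9 TPM. Grin2c, an NMDA receptor subunit, averaged 53.1 and 93.9 TPM. Hapln1 and Timp4, a link protein and a protease inhibitor of the matrix, averaged 26.3 and 283 TPM in positive cells and 56.9 and 527 TPM in negative cells.

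**Figure D4:**
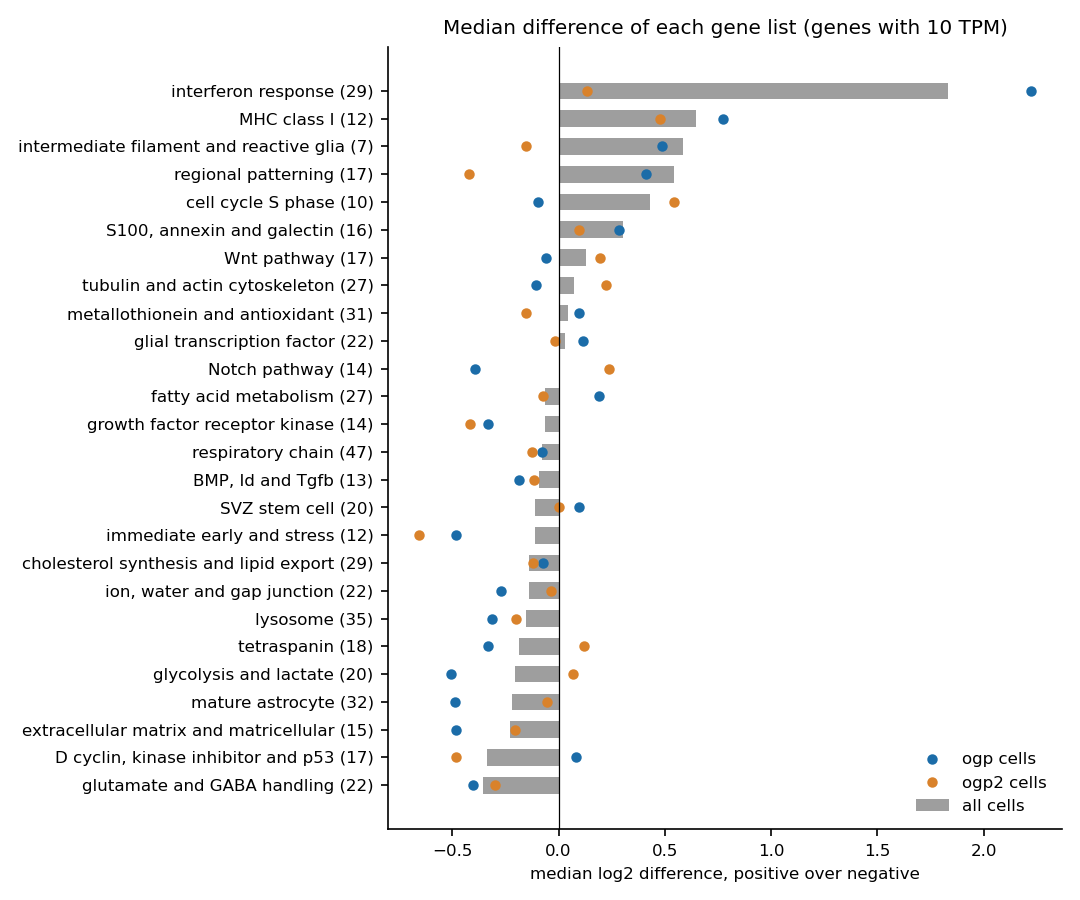
Median log2 difference between positive and negative cells over the genes with 10 TPM in either group (their number in brackets) of each list that had at least 7 of them, lists of cell type markers left out, for all cells (grey bars) and within each name series (points). The interferon response list lies at 1.83 and MHC class I at 0.65, glutamate and GABA handling lies lowest of those plotted at -0.36, and for several lists the 2 series lie on opposite sides of 0.

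A rule based on size, share of cells and direction in both series named genes without regard to their function. It was met by 63 genes higher and 114 genes lower in positive cells, of which 4 and 7 were predicted genes or pseudogenes and are not named. The 63 included Rpl27a and Rpl39, ribosomal protein genes of the kind used to choose the cells. Apart from predicted genes and pseudogenes, the 15 with the largest difference each way are named. The 15 higher genes were Eftud2, Hnrnpd, Sfrp1, Gbp7, Man2a2, Narfl, Fam92a, Magee1, Cul5, Bptf, Crebzf, Polr1d, Cog2, Wdr45b and Fzd5, with log2 differences from 1.70 to 2.47. They were present in 14 to 26 of 44 positive cells and in 6 to 20 of 63 negative cells. Eftud2, a spliceosome GTPase, averaged 65 ± 147 TPM in positive and 10.9 ± 41.6 TPM in negative cells, in 15 and 6 cells. Polr1d, a subunit shared by RNA polymerases I and III, averaged 132 ± 189 and 33.3 ± 81.9 TPM, in 23 and 12 cells. Gbp7, an interferon-inducible GTPase, was present in 17 of 44 positive and 10 of 63 negative cells at means of 53.9 and 10.1 TPM. The set also held a ubiquitin ligase scaffold (Cul5), a chromatin remodeller (Bptf) and an RNA-binding protein (Hnrnpd), each in 14 to 18 positive cells. The log2 difference of Bptf was 1.98, and 1.37 without the positive cell highest in microglia markers.

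The 15 lower genes were Tubg1, Gabbr2, Eps15l1, Ankmy2, Ankfy1, Ppp3ca, Naa60, Cdc16, Wdr41, Efhd2, Stx18, Itga6, Rbms1, Rpe65 and Anks3, with log2 differences from -2.88 to -1.89. Itga6, an integrin chain that binds laminin (ENSMUSG00000027111, chromosome 2, 71745616 to 71858416, plus strand), had lowest, median and highest values of 0, 0 and 146 TPM in positive cells, against 0, 15 and 496 TPM in negative cells. It was present in 13 of 44 positive cells (29.5%, 16.8 to 45.2) and 39 of 63 negative cells (61.9%, 48.8 to 73.9). Ppp3ca, the catalytic subunit of the phosphatase calcineurin, averaged 16.4 ± 33.9 and 76.9 ± 113 TPM, in 12 of 44 positive and 35 of 63 negative cells. Cdc16, a subunit of the anaphase-promoting complex, averaged 28.8 and 128 TPM, and Tubg1, gamma-tubulin of the centrosome, 7.56 and 62.0 TPM. Many of these genes are near the level at which a cell either lists a gene or does not, and a difference there cannot be told apart from one in detection.

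The positive cells were not uniform. Against the 16 cells with Gfap only, the 28 cells with Thbs4 had a median of 3496 genes at 1 TPM, against 2971.5, and 17 of the 28 came from the ogp series, against 5 of the 16. This comparison and the genes named in it were chosen after values were seen. Of 9060 genes with 10 TPM in either subset, 2403 (26.5%) were at least 2-fold higher and 1778 (19.6%) at least 2-fold lower in the cells with Thbs4, shares larger than those between positive and negative cells, in smaller groups.

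Among positive cells, Vim was mostly found in those with Thbs4, where 12 of 28 had it at a mean of 247 ± 362 TPM, against 1 of 16 cells with Gfap only at a mean of 29.7 TPM. Within series it was present in 9 of 17 and 3 of 11 cells with Thbs4, against 0 of 5 and 1 of 11 with Gfap only. S100a4, a relative of S100a6 linked to cell motility, was present in 7 of 28 cells with Thbs4, at up to 1771 TPM, and was listed at 0 in all 16 cells with Gfap only. Among negative cells, 14 of 63 had it. Igfbp5 averaged 101 ± 135 TPM in cells with Thbs4 and 22.4 ± 31.8 TPM in cells with Gfap only.

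Most mature astrocyte genes had the reverse order in the pooled cells. S100b was present in 4 of 28 cells with Thbs4 (mean 7.37 TPM) and in 10 of 16 cells with Gfap only (mean 133 TPM), the second of these shares being near that of negative cells. Within series it was present in 1 of 17 and 3 of 11 cells with Thbs4, against 2 of 5 and 8 of 11 with Gfap only. Slc4a4, the sodium bicarbonate cotransporter, averaged 70.8 ± 87.3 TPM in cells with Thbs4 and 220.1 ± 195 TPM in cells with Gfap only, and was lower with Thbs4 in both series. Htra1 averaged 2062 ± 1421 TPM with Thbs4 and 3705 ± 2443 TPM with Gfap only, but in ogp cells the order was turned, with 2019.7 TPM with Thbs4 and 1437 TPM with Gfap only. Of 31 mature astrocyte genes with 10 TPM in either subset, 28 were lower in the cells with Thbs4, with a median of -0.41 beside 0.084 over all genes. Only 6 of the 31 were at least 2-fold lower, a share near the 19.6% over all genes, and 1 was at least 2-fold higher. List medians within series were not calculated for these subsets, which differed in their share of ogp cells. MHC class I genes had a median of 0.70 in the same comparison, with 3 of 12 at least 2-fold higher, near the 26.5% over all genes. Interferon genes had a median of 1.255, with 16 of 28 at least 2-fold higher and 2 lower. The highest interferon sums of positive cells, 28550, 12192 and 11020 TPM, were all in cells with Thbs4. With Gfap only the highest was 8722 TPM. The medians of this comparison without such cells were not calculated.

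**Figure D5:**
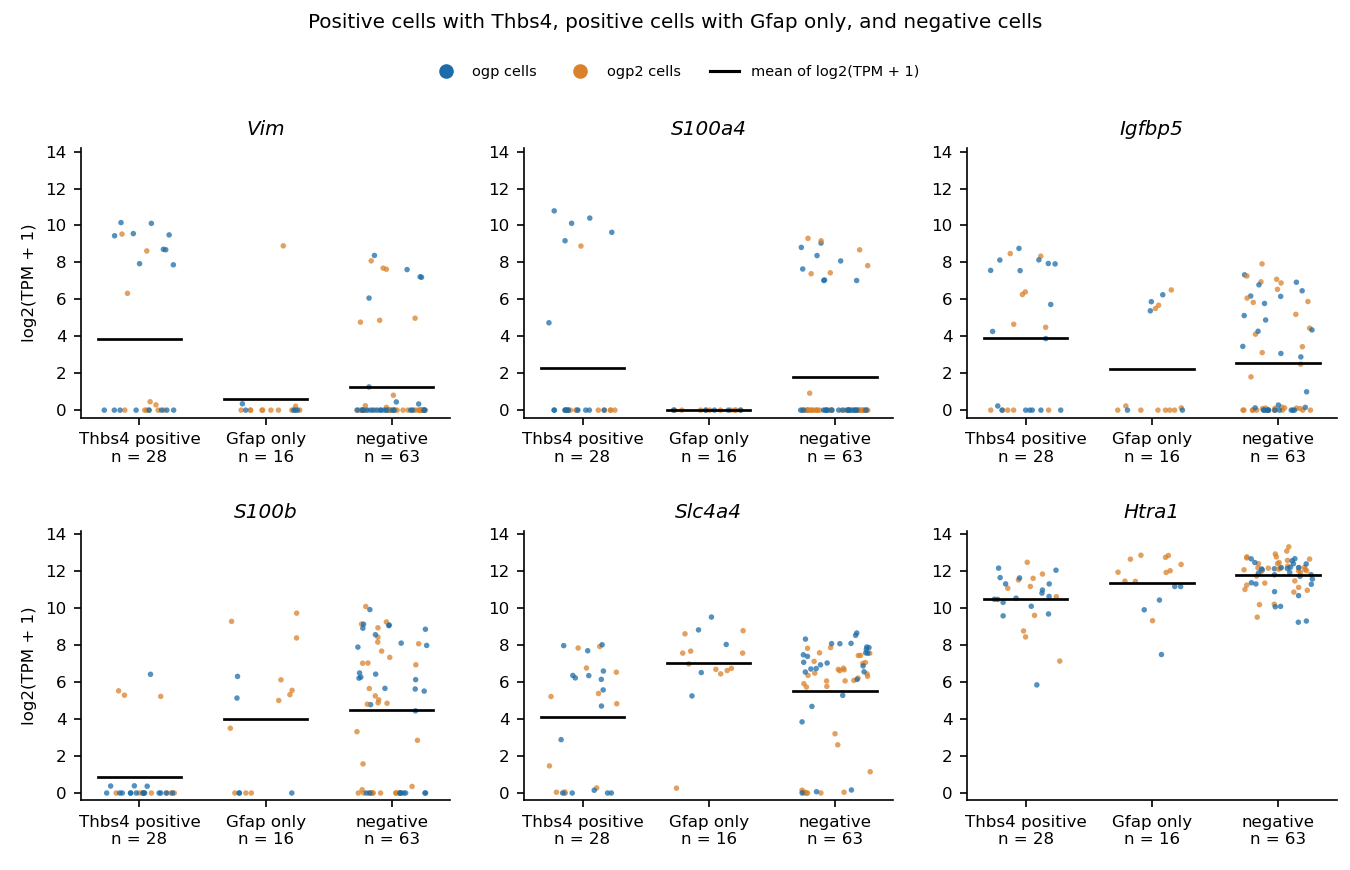
log2(TPM + 1) of 6 genes in 28 positive cells with Thbs4 (left), 16 positive cells with Gfap only (middle) and 63 negative cells (right), with a point per cell coloured by name series and a black line at the mean of the plotted values. Vim was present in 12, 1 and 12 of these cells and S100b in 4, 10 and 41, and Htra1 was present in every cell.

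The striatal astrocytes give levels in glia outside the germinal zone, though at another age and under a sort without CD133. Vim was present in 1 of 13 striatal cells, Sfrp1 in 3 and Oasl2 in 0, against 13, 26 and 9 of 44 positive SVZ cells. S100b was present in 10 of 13 and Cryab in 9 of 13, against 14 and 7 of 44. Igfbp5 averaged 72.2 TPM in positive SVZ cells and 0.954 TPM in striatal cells. Negative SVZ cells, whose values are given above, lay between positive and striatal cells in each of these shares and in the Igfbp5 mean.

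Genes that divide SVZ cells in other ways cut across the positive group. Crym, a thyroid hormone-binding protein, was present in 24 of 44 positive and 45 of 63 negative cells at means of 1856.5 ± 2942 and 2535 ± 3001 TPM. Sfrp5, a secreted Wnt-binding protein related to Sfrp1, was present in 10 of 44 positive and 22 of 63 negative cells at means of 58.6 and 65.1 TPM. Hsd11b1, which regenerates active glucocorticoid, was present in 13 of 44 and 22 of 63 cells, and its log2 difference of 0.77 was -1.69 in ogp and 2.35 in ogp2 cells.

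Few genes of the metabolic lists were past 2-fold, beside 12.4% each way over all genes. Of 27 fatty acid metabolism genes, 0 were at least 2-fold higher and 1 lower, with a median of -0.062. Of 47 respiratory chain genes, 0 were higher and 1 lower, with a median of -0.077, the lower one being Sdhd, a membrane subunit of complex II, at 127 TPM in positive and 282 TPM in negative cells. Of 29 genes for cholesterol synthesis and lipid export, 3 were higher and 2 lower. Glycolysis and lactate genes had a median of -0.21, with -0.50 in ogp and 0.066 in ogp2 cells, and 0 higher, 1 lower and 16 below 0 of 20. The median of lysosomal genes was -0.15, with 1 higher and 2 lower of 35. Immediate early and stress genes, which tissue dissociation can induce, had 0 higher and 4 lower of 12 (33.3%, beside 12.4% over all genes), with a median of -0.11 that was -0.48 in ogp and -0.66 in ogp2 cells. Summed over the 25 genes of that list, the median cell had 284 TPM among positive and 262 TPM among negative cells. The 2 highest sums were 37721 and 5373 TPM in negative cells and 16589 and 8923 TPM in positive cells, so the means lean on few cells.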

How the data were processed

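Single cells of the SVZ and striatum were prepared by Smart-seq2, which copies full-length mRNA of 1 cell. The authors deposited TPM per gene and cell, with STAR 2.4.0g1, RSEM 1.2.18 and build mm10 given in the submitters' processing notes. The annotation is not given in the sources used here. Of 43309 gene IDs, 42425 matched a symbol, and the ID with the highest mean stood for each of 42405 symbols. TPM keep no depth, so intervals cover counting of cells only.

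Columns were rescaled to 1000000. The ribosomal share counts symbols of ribosomal proteins. Group means, a pseudocount of 1 TPM and a mean of at least 10 TPM in either group were used with python 3.11.15, pandas 2.3.3, numpy 2.4.6, scipy 1.17.1 and matplotlib 3.10.9. A gene was present at 1 TPM or more, and past 2-fold was a description, with no test. Coordinates are those of GENCODE vM21. The calculation was tested on shuffled values with known folds.

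Named genes had at least 20 TPM and 30% of cells in the higher group, a log2 difference of 1 pooled and 0.58 in each series, and a share at least 10 points above the other group. The 15 largest each way were named, with up to 4 members with 20 TPM of each list, Slc1a3, Prom1, Vim, S100a6, Crym, Sfrp5, Hsd11b1 and Egfr. Olig1, Pdgfra, C1qb, Dcx, Mki67, Nes, S100a4 and Slc4a4 were chosen otherwise, after values were seen. The members, lists and comparisons were chosen with earlier results of these data known. Cortex cells and the population libraries were not analysed here, and some items are not reported here.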

Additional observations from a re-analysis of the deposited data

How the results depend on the processing

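No test was run, so p-values cannot show stability. No paired analysis was possible because the numbers of the cells name single cells, with no tie to an animal, and the results come from no test. A chosen set of 70 genes was followed, which left out some genes named above. Those from the naming rule had been required to share direction in both series. Their sign in ogp or ogp2 cells alone was therefore fixed in advance. Over 1239 pairs of a gene past 2-fold and an alternative, 186 moved by over 1.5 times without a change of sign. Of the 59 followed genes past 2-fold, 56 kept their sign under all 21 alternatives. The exceptions were Ctnnb1 at -1.50 and Gpx8, a peroxidase, at -3.94 in ogp2 cells only, and Olig2, an oligodendrocyte factor, at 3.16 among cells in the common range of detected genes and 2.72 without the 2 negative cells with oligodendrocyte markers. The counts of genes at least 2-fold higher and lower, 1100 and 1102, were 475 and 519 with a pseudocount of 10, 362 and 372 with 10 TPM in both groups, 2294 and 2665 with 1 TPM in either, 271 and 554 on means of log2(TPM + 1), 2027 and 1722 in ogp cells alone, and 1464 and 1921 in ogp2 cells alone. In both series at once, 429 and 500 became 119 and 181 with a pseudocount of 10, 116 and 114 with 10 TPM in both groups, 613 and 917 with 1 TPM in either, and 85 and 204 on means of logs. The count lower in both series was 864 without the highest cell of each gene and group and 790 with membership by Gfap alone. The interferon median of 1.83 was 0.95 with 10 TPM in both groups, 0.44 on means of logs, 0.96 without the highest cell of each gene, 0.74 without the top cell of each group and 0.25 without the 4 positive cells highest in these genes. The S100, annexin and galectin median was -0.0054 on means of logs, and that of patterning genes was -0.71 in ogp2 cells alone, over the genes with 10 TPM there. Apart from the alternatives' own construction, the cause was not tested. The last 4 alternatives, which leave out cells by their markers or interferon genes, were added after seeing the data. Dropout and unknown depth limit each single gene, and 1 pool of animals limits the rest.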
